A study of Mus musculus with 4 samples.

Results

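The genes described here lie in the Kcnq1 imprinted domain of distal mouse chromosome 7. They are the cyclin-dependent kinase inhibitor gene Cdkn1c, the long noncoding RNA Kcnq1ot1, and their neighbours Kcnq1, Slc22a18, Phlda2, Nap1l4, Cd81, Tssc4 and Ascl2. They were taken by symbol from the deposited count tables, and all 9 were found among 24625 gene models. Cdkn1c drew attention to the domain because its counts were lower with high-fat diet in these same libraries. Its diet difference is therefore given as a description without a test. The other 8 genes were included for their position, with earlier results of these data already known.

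RNA came from macrophages collected from the peritoneal cavity of C57BL/6 mice. The high-fat group had been fed for 12 weeks on a diet supplying 60% of its energy as fat, and the control group had received standard chow for the same time. Mice of both groups had received 3% thioglycollate medium, an irritant that draws macrophages into the cavity, 4 days before collection. Each diet had 2 libraries of total RNA depleted of ribosomal RNA, and nothing states whether a library was made from individual or pooled mice, so p-values measure only the spread between these libraries, which may be technical. Counts on gene models were 45658551 and 40527591 in high-fat replicates 1 and 2, and 39846646 and 39347347 in control replicates 1 and 2.

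Imprinted genes are transcribed mainly from the copy inherited from a given parent. In this domain the promoter of Kcnq1ot1 lies within the imprinting control region; it is methylated on the maternal chromosome and active on the paternal one, where the antisense RNA made from it silences neighbouring genes in cis. In tissues where their imprinting holds, Cdkn1c, Kcnq1, Slc22a18 and Phlda2 are therefore expressed mainly from the maternal chromosome. Imprinting of Ascl2, Cd81 and Tssc4 is known mainly from placenta. Counts per gene do not separate the parental copies, so nothing in these values bears on which chromosome was transcribed.

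In the deposited gene models (mm9), Cdkn1c occupied chr7:150644244-150646955 on the minus strand, with 4 exon blocks and 1942 exon bases. Kcnq1ot1 was a model of 1 exon at chr7:150399016-150482452, also on the minus strand, and its start site lay 164.5 kb from that of Cdkn1c. It was 83437 bases long and sat inside Kcnq1, which ran on the plus strand at chr7:150293159-150612947 with 16 exons. The Kcnq1ot1 start site fell in intron 11 of Kcnq1, and exon 11 of Kcnq1 (121 bases) lay wholly within the Kcnq1ot1 model. The strand setting of the counting was not given. Without strand, reads from unspliced Kcnq1 RNA within those 83437 bases cannot be told apart from Kcnq1ot1, and the values of both genes carry that uncertainty. On the Cdkn1c side the models continued with Slc22a18 (plus strand, 12.71 kb from the Cdkn1c start site), Phlda2 (minus strand, 41.47 kb) and Nap1l4 (minus strand, 88.07 kb). Beyond Kcnq1 on the other side stood Tssc4 and Cd81 on the plus strand and Ascl2 on the minus strand; Cd81 shared 30 exon bases with the antisense gene R74862.

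Kcnq1ot1 and Tssc4 had lower values with high-fat diet, Tssc4 without passing the test, and Phlda2 had no counts. The Kcnq1ot1 promoter is also the control element of the domain. Promoter sequences of these 3 genes are therefore shown. Each covers 250 bases before and 50 after the gene's start, from RefSeq on GRCm38.p6, and capitals mark the motif CCAAT on either strand (on the other strand it reads as ATTGG). Such boxes are known binding sites of the factor NF-Y, including in the mouse Kcnq1ot1 promoter.
Kcnq1ot1 (chr7:143296498-143296797, minus strand): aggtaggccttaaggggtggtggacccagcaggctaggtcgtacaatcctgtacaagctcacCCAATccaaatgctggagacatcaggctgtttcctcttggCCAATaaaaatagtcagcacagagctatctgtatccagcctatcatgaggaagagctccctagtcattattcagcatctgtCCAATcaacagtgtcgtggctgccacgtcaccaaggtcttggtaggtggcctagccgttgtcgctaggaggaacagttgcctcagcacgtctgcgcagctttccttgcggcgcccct
Tssc4 (chr7:143069118-143069417, plus strand): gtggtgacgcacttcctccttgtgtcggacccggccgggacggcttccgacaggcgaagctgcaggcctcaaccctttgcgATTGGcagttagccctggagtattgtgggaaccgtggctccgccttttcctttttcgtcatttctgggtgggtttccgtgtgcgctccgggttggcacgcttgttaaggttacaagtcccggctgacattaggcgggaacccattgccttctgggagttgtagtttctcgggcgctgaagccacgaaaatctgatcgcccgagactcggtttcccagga
Phlda2 (chr7:143502475-143502774, minus strand): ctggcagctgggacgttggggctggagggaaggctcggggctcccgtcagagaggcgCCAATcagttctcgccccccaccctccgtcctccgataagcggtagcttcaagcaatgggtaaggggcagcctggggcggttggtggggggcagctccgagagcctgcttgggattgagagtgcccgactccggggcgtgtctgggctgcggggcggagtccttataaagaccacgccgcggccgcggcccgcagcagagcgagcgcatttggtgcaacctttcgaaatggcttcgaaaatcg

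The Kcnq1ot1 window held 3 CCAAT boxes, all on the strand as printed, against 1 on either strand in the Tssc4 window and 1 in the Phlda2 window. Of 32851 promoter windows of the same length in the mouse table, 37.4% held at least 1 CCAAT or ATTGG and 3.37% held at least 3; Ascl2, with 1 count over all libraries, also held 3. The Kcnq1ot1 window had 9 CpG dinucleotides, fewer than the 23 of Tssc4 and the 26 of Phlda2, and the median over all windows was 7. The windows of Cd81 and Slc22a18, not shown, held 0 CCAAT or ATTGG, with 23 and 2 CpG dinucleotides. A match describes the letters only. The table matched 6 of the 9 genes, and Cdkn1c, Kcnq1 and Nap1l4 had no entry.

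Cdkn1c, which encodes the cyclin-dependent kinase inhibitor p57 and holds cells in G1 phase, had lower values in both high-fat libraries than in both control libraries. Its counts were 880 and 568 in the high-fat libraries, against 1514 and 1573 in the control libraries. Scaled to 1000000 counts of each library's TMM-adjusted total (CPM), these were 18.96 and 14.2 CPM with high-fat diet, and 37.6 and 40.5 CPM with control diet. The diets did not overlap, and the high-fat libraries lay further from each other than the control libraries did. Mean levels were 16.6 ± 3.35 CPM with high-fat diet and 39.1 ± 2.06 CPM with control diet (SD, n = 2 each), a log2 fold change of -1.23 ± 0.15 (SE, high-fat over control), or 0.425 times the control level. Of 12747 genes kept by the filter on low counts, 82 had a lower log2 fold change, which is 0.643% of them. These are the values for which the gene was chosen. In bulk RNA, fewer cells that express a gene and less of its RNA per cell cannot be told apart.

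Cdkn1c stands apart from most genes in base composition. Its transcripts were 59.2% G and C, higher than 93.2% of the 23901 genes with a value, whose median was 49.3%. The stretch of 90 coding bases richest in G and C in its GENCODE transcript Cdkn1c-201 (GRCm38, transcript positions 533 to 622, 82.2% G and C) shows this, with capitals on runs of 6 or more G or C.
Cdkn1c coding stretch: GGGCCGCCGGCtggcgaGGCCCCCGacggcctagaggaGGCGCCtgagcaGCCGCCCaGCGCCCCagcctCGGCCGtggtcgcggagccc
With the trend of GC content and exon length removed from every library, the log2 fold change of Cdkn1c was -1.07 ± 0.15 (SE), within the spread between replicates of the value without that step. It was -1.46 with high-fat replicate 1 left out and -1.05 with high-fat replicate 2 left out, so the size of the difference moved with the high-fat library used, while its sign was the same in all 15 alternatives run.

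Kcnq1ot1, the noncoding RNA that silences its neighbours on the paternal chromosome, fell. It had 2967 and 2620 counts in the high-fat libraries and 4044 and 3473 counts in the control libraries. The scaled levels were 63.9 and 65.6 CPM with high-fat diet, against 100.5 and 89.5 CPM with control diet, and the diets did not overlap. Means were 64.7 ± 1.18 CPM with high-fat diet and 95.0 ± 7.78 CPM with control diet (SD, n = 2 each). The log2 fold change was -0.55 ± 0.10 (SE; adjusted p = 0.0478, edgeR quasi-likelihood test with Benjamini-Hochberg adjustment over all kept genes), lower in 2 of 2 high-fat libraries. Kcnq1ot1 was the only one of the 6 other kept genes of the domain to pass the threshold of 0.05. Over all kept genes 0.612% passed, 0.322% higher and 0.290% lower. The genes were chosen with earlier results of these data known, so this was not a test on a set chosen independently. The call was marginal: it was kept in 7 of 14 alternatives run, with adjusted p from 0.00107 to 0.193, and it ended without control replicate 1 (log2 fold change -0.48, adjusted p = 0.193) and without control replicate 2 (-0.64, adjusted p = 0.0605). Unlike Cdkn1c, Kcnq1ot1 is poor in G and C (40.3%, with 8% of genes lower), and with the GC content and length trend removed its log2 fold change was -0.63 (adjusted p = 0.0434).

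**Figure D1:**
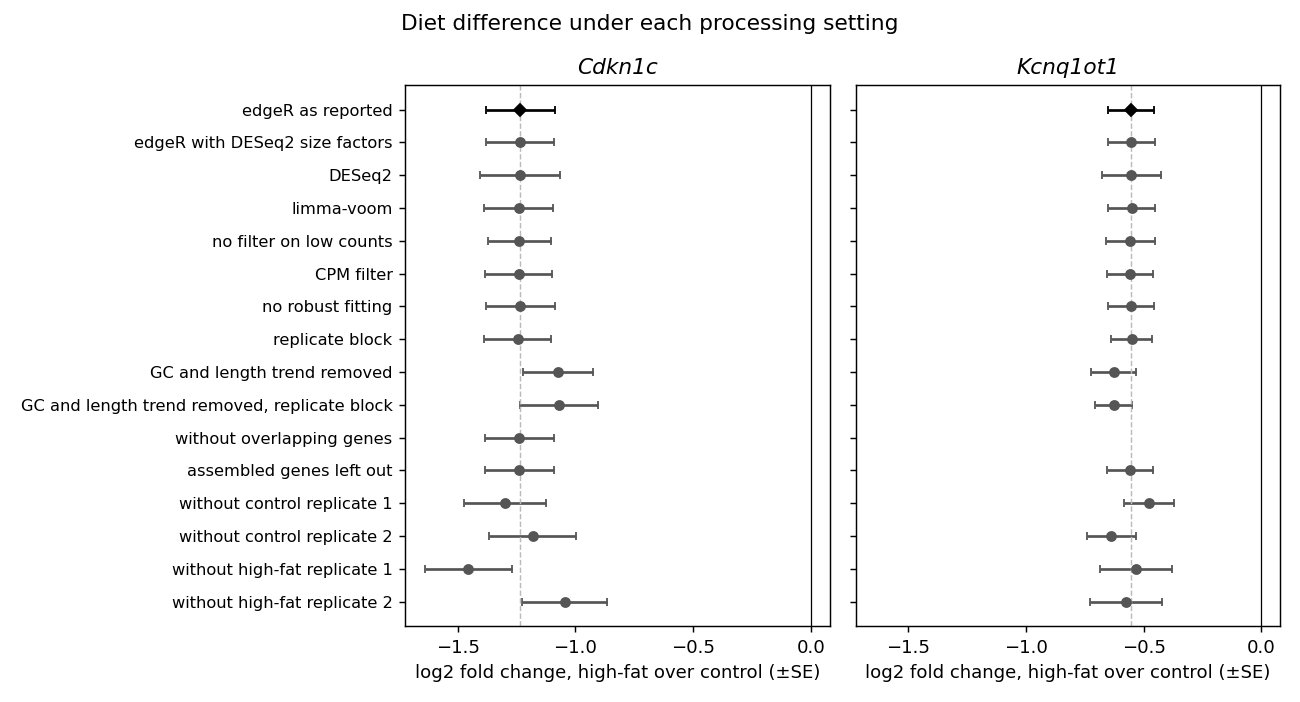
Log2 fold change (high-fat over control, with SE bars) of Cdkn1c at left and Kcnq1ot1 at right under each processing setting, on a common horizontal axis; the diamond is the reported fit and the dashed line its value. Values of Cdkn1c ran from -1.46 to -1.05 and those of Kcnq1ot1 from -0.64 to -0.48 over the alternatives, all below 0; Kcnq1ot1 has no point without overlapping genes because it overlaps Kcnq1.

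Both RNAs could be compared within a library, where the choice of scaling drops out. Cdkn1c had 0.297 and 0.217 counts for each Kcnq1ot1 count in high-fat replicates 1 and 2, and 0.374 and 0.453 in control replicates 1 and 2. Against Nap1l4, the gene of the domain with the most counts over the 4 libraries, the ratio was 0.194 and 0.151 with high-fat diet and 0.455 and 0.464 with control diet. Cdkn1c made up 9.69% and 7.28% of all counts on the 9 genes with high-fat diet, against 15.7% and 17.5% with control diet. Kcnq1ot1 made up 32.7% and 33.6% with high-fat diet and 41.8% and 38.7% with control diet, while Nap1l4 made up 50.03% and 48.3% with high-fat diet against 34.5% and 37.8% with control diet. These shares restate the counts and are descriptions. As parts of the same total they are not independent: a lower share of Cdkn1c and Kcnq1ot1 raises that of Nap1l4. The shares of the high-fat and control libraries did not overlap for any of the 3 genes. In CPM the diets did not overlap for 51.0% of all kept genes.

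The other protein-coding genes of the domain that are expressed mainly from the maternal chromosome where they are imprinted had low counts, and none passed the test. Kcnq1, a voltage-gated potassium channel subunit best known from heart and inner ear, had 129 and 185 counts in the high-fat libraries and 152 and 99 in the control libraries, so the diets overlapped. Its log2 fold change was 0.22 ± 0.30 (SE; adjusted p = 0.727, edgeR), with a sign that turned to -0.03 without control replicate 2 and -0.19 without high-fat replicate 2. Slc22a18, a membrane transporter of the organic cation family, had 38 and 21 counts with high-fat diet and 29 and 9 with control diet, a log2 difference of 0.50 ± 0.53 (SE; adjusted p = 0.646, edgeR) that was -0.10 without control replicate 2 and 1.52 without control replicate 1. In both genes the standard error was larger than the log2 difference. Phlda2, a pleckstrin-homology domain protein that limits placental growth, had 0 counts in all 4 libraries, which allows up to 3 counts per library (0.0646 to 0.0773 CPM) by counting error alone.

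Genes at the edges of the domain, whose imprinting is known mainly from placenta or is weak, did not pass either. Nap1l4, a histone chaperone of the nucleosome assembly protein family, had 97.9 and 94.5 CPM with high-fat diet and 82.8 and 87.2 CPM with control diet. The diets did not overlap and the high-fat libraries were higher, but the log2 fold change of 0.18 ± 0.09 (SE) had an adjusted p of 0.360 (edgeR). Cd81, a tetraspanin of the cell surface, had 9.61 and 14.4 CPM with high-fat diet and 12.4 and 8.78 CPM with control diet, which overlap (0.18 ± 0.23 (SE) on the log2 scale, adjusted p = 0.717, edgeR); its value was -0.05 without control replicate 2 and -0.14 without high-fat replicate 2. Its higher high-fat library was replicate 2, which also had the highest summed level of the 7 B cell markers (6 above 0), 193 CPM. The sum was 109 CPM in high-fat replicate 1 and 110 to 119 CPM in the control libraries. The 1 marker called higher by edgeR, Igj, had 3.66 CPM in high-fat replicate 1 and 3.05 CPM in replicate 2, and Cd22 was lowest in replicate 2 (40.9 CPM). T cell markers summed to 13.8 CPM in high-fat replicate 2, 1.27 CPM in replicate 1 and 1.24 to 1.65 CPM with control diet. Without high-fat replicate 2 the median log2 fold change of the B cell markers was -0.02, against 0.94 with all libraries. The part of these markers in the Cd81 values was not tested. Tssc4, which in human cells takes part in assembling the U5 particle of the spliceosome, had 77 and 61 counts with high-fat diet and 96 and 84 with control diet. All its high-fat values lay below the control values (1.66 and 1.53 CPM against 2.38 and 2.16 CPM), a log2 difference of -0.51 ± 0.25 (SE; adjusted p = 0.331, edgeR). Ascl2, a transcription factor of trophoblast and intestinal stem cells, had 1 count in high-fat replicate 2 and 0 in the other libraries.

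Over the domain, 7 of the 9 genes passed the filter on low counts, and Phlda2 and Ascl2 did not. With Cdkn1c, chosen for its value, among them, the 7 had a median log2 fold change of 0.18, beside a median of -0.01 over all kept genes, of which 50.8% lay below 0. Of the 6 besides Cdkn1c, 2 lay below 0 and 4 above. In 3 of these 6 the libraries of the diets did not overlap, with Kcnq1ot1 and Tssc4 lower with high-fat diet and Nap1l4 higher. Among all kept genes 51.0% had diets that did not overlap, 24.9% lower and 26.1% higher with high-fat diet, so the count of 3 in 6 is near the background.

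**Figure D2:**
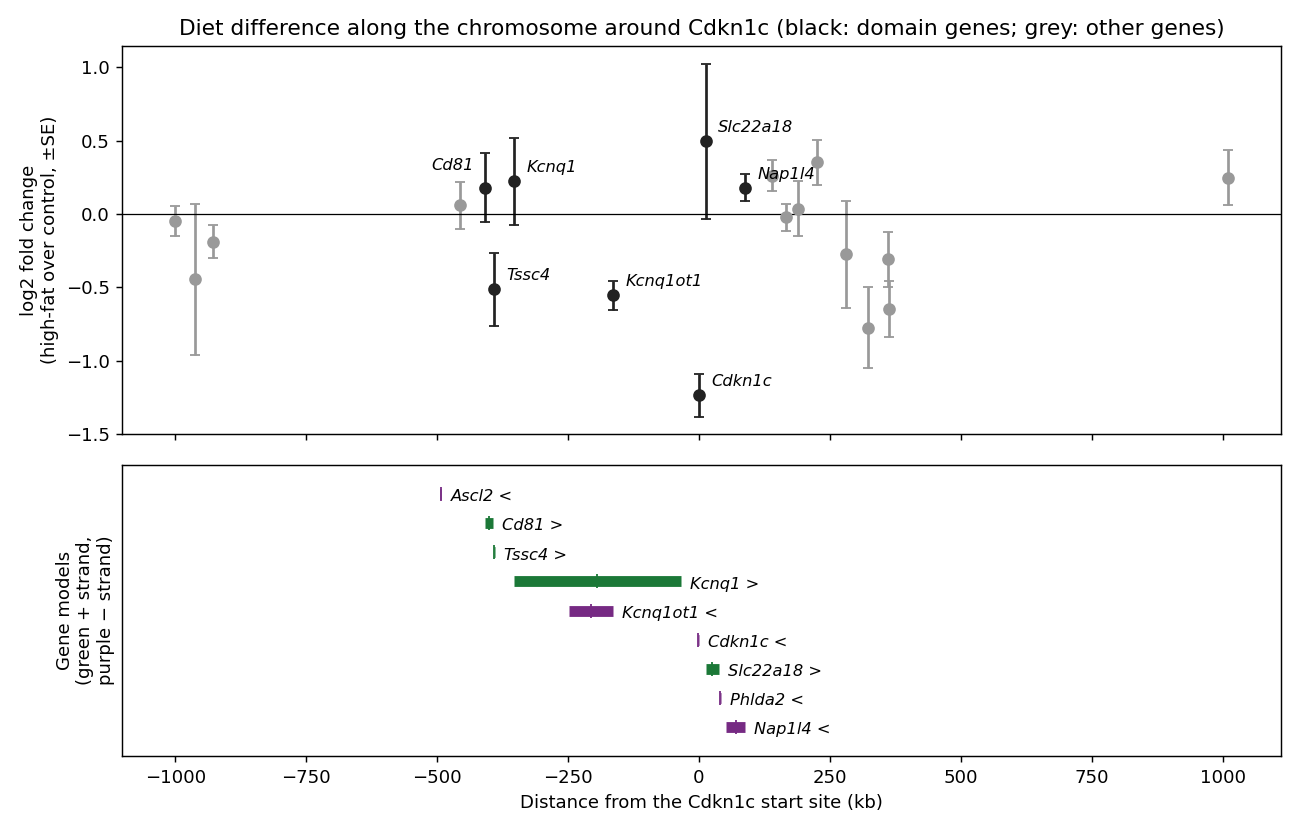
Top: log2 fold change (high-fat over control, with SE bars) of kept genes against the distance of their start site from that of Cdkn1c in kb, with domain genes in black and the 13 other kept genes in grey. Bottom: extent and strand of the 9 gene models, with Kcnq1ot1 inside Kcnq1. Cdkn1c has the lowest value at -1.23, Kcnq1ot1 lies at -0.55, and the neighbours of Cdkn1c on its other side, Slc22a18 and Nap1l4, lie above 0.

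Levels between genes were compared as CPM per kilobase of exon. Nap1l4 had the highest level of the domain, 39.98 ± 1.001 with high-fat diet and 35.3 ± 1.32 CPM per kb with control diet (SD, n = 2 each, as for the levels that follow). With high-fat diet Cdkn1c, at 8.54 ± 1.73 CPM per kb, and Cd81, at 7.91 ± 2.24 CPM per kb, came next and overlapped. With control diet both libraries of Cdkn1c, at 20.1 ± 1.06 CPM per kb, lay above both of Cd81, at 6.97 ± 1.67 CPM per kb. Tssc4 (1.14 ± 0.0669 with high-fat diet and 1.63 ± 0.112 CPM per kb with control diet), Kcnq1 (1.22 ± 0.432 with high-fat diet and 1.04 ± 0.286 CPM per kb with control diet) and Kcnq1ot1 (0.776 ± 0.0141 with high-fat diet and 1.14 ± 0.0932 CPM per kb with control diet) followed. Over the 4 libraries, Tssc4 overlapped Kcnq1 and Kcnq1 overlapped Kcnq1ot1. Slc22a18 stood below these genes, at 0.413 ± 0.127 CPM per kb with high-fat diet and 0.293 ± 0.212 CPM per kb with control diet.

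**Figure D3:**
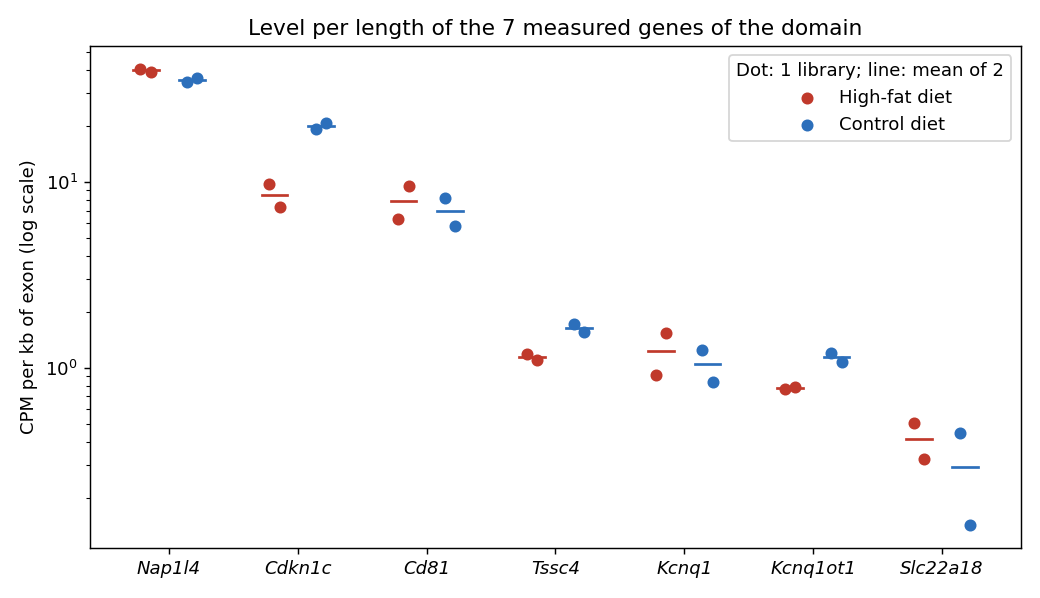
Level per length (CPM per kb of exon, log scale) of the 7 kept genes of the domain; each dot is 1 library and each line the mean of 2, with high-fat libraries in red left of control libraries in blue. The high-fat dots of Cdkn1c (9.76 and 7.32) overlap those of Cd81, while its control dots (19.4 and 20.9) lie above every Cd81 dot.

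The per-length levels of Kcnq1ot1 and Kcnq1 were of like size although Kcnq1ot1, with the far longer model, drew far more counts. Kcnq1ot1 had 0.835 and 0.514 times the CPM per kb of Kcnq1 in high-fat replicates 1 and 2, and 0.966 and 1.27 times in control replicates 1 and 2. The part of unspliced Kcnq1 RNA in the Kcnq1ot1 count was not tested. The Kcnq1 exon counts overlapped between diets while the Kcnq1ot1 counts did not, as for 51.0% of all kept genes. Kcnq1 exon counts were few, 99 to 185 per library, and do not measure its unspliced RNA.

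The surroundings of the domain were examined in the same fit. Within 1000000 bases on either side of Cdkn1c the deposited annotation held 38 models, of which 11 had no counts and 20 were kept, 13 of them outside the 9 genes. None of these 13 passed by edgeR, DESeq2 or limma-voom, with 4, 3 and 4 of them at an unadjusted p under 0.05, beside 17.0% of all kept genes by edgeR; without high-fat replicate 1, a fit with 831 calls over all genes, edgeR called 1 of them lower. Their median log2 fold change was -0.05. The lowest were Mrgpre, a Mas-related G protein-coupled receptor gene, at -0.77 ± 0.27, and Dhcr7, the enzyme of the last step of cholesterol synthesis, at -0.65 ± 0.19 (SE; adjusted p = 0.215 and 0.155, edgeR). The highest was the decoy death receptor gene Tnfrsf23, at 0.35 ± 0.15 (SE), with 707 and 553 counts with high-fat diet and 506 and 395 with control diet. Cars, encoding cysteinyl-tRNA synthetase and next to Nap1l4, had 0.26 ± 0.11 (SE), and the tetraspanin gene Tspan32, between Ascl2 and Cd81, had 0.06 ± 0.16 (SE). In the adjoining imprinted cluster, H19 had 6 counts in high-fat replicate 1 and 0 in the other libraries, Igf2 had at most 2 counts in any library, and Ins2 had none.

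Inhibitors of the cell cycle from other loci were examined as a list. Of 7 listed genes of the CIP/KIP and INK4 families and Cdkn3, 5 were kept, with a median log2 fold change of 0.05, and none passed by edgeR, DESeq2 or limma-voom or had an unadjusted p under 0.05 in them. Cdkn1a, encoding p21, had 11.6 CPM with high-fat diet and 12.4 CPM with control diet (log2 fold change -0.10 ± 0.20 (SE)), and Cdkn1b, encoding p27, had 11.5 CPM with high-fat diet and 11.1 CPM with control diet (0.05 ± 0.15). Cdkn2c had 0.35 ± 0.22, Cdkn2b 0.13 ± 0.48, and Cdkn2a and Cdkn2d were below the filter.

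Genes of the cell cycle machinery that such inhibitors act on formed a further pair of lists. Among 18 cyclins, kinases, pocket proteins and E2F factors of G1 and S phase, all kept, the median log2 fold change was 0.03, and none passed by edgeR, DESeq2 or limma-voom, with 1 at an unadjusted p under 0.05 in each; edgeR called 1 higher without high-fat replicate 1, a fit with 831 calls over all genes, and 1 lower with the GC content and length trend removed, a fit with 143. The retinoblastoma gene Rb1 had -0.35 ± 0.10, its relatives Rbl1 and Rbl2 0.21 ± 0.10 and -0.15 ± 0.12, and the S phase cyclin gene Ccne2 0.60 ± 0.31 (SE). Of 18 genes of proliferating cells 17 were kept, 13 above 0 and 4 below, with a median of 0.10, beside 50.8% of all kept genes below 0. With the GC content and length trend removed the list's median was 0.0014. None passed by edgeR, DESeq2 or limma-voom or had an unadjusted p under 0.05 in them. Ccnb1, the cyclin of mitotic entry, stood at 0.34 ± 0.21, the replication clamp gene Pcna at 0.13 ± 0.11, the replicative helicase subunit gene Mcm3 at -0.14 ± 0.13 and Top2a, a topoisomerase of dividing cells, at 0.15 ± 0.14 (SE).

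**Figure D4:**
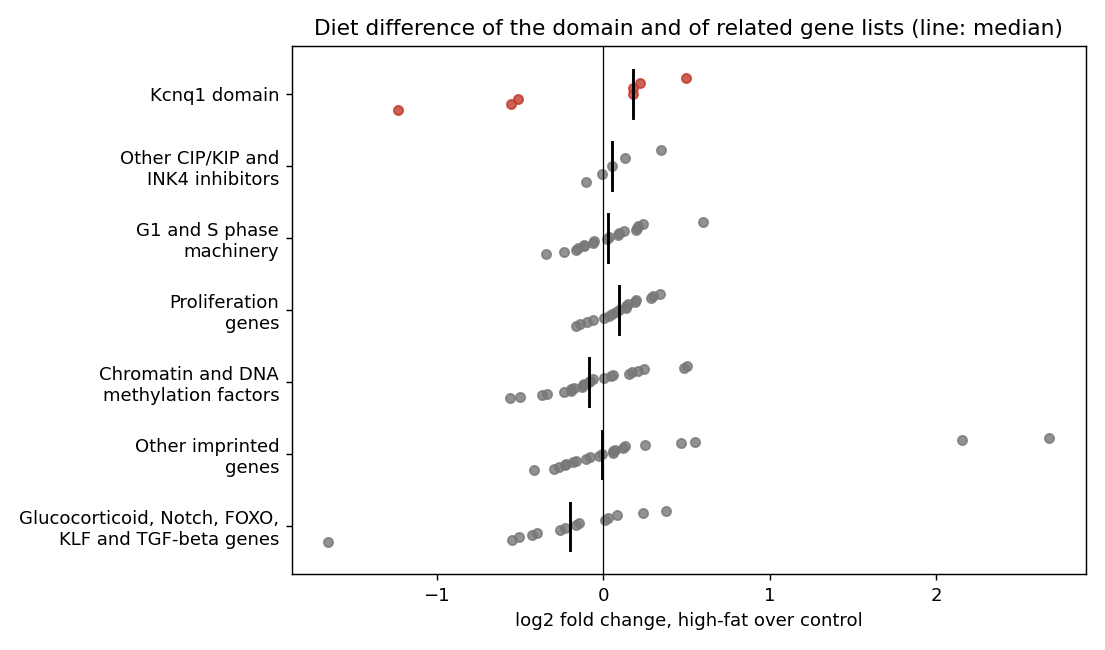
Log2 fold change (high-fat over control) of every kept member of the domain (red, top) and of 6 related gene lists (grey); each dot is 1 gene, spread vertically by rank, and the black line is the list's median. Cdkn1c at -1.23 lies below every kept member of the cell cycle lists, whose medians are 0.03 to 0.10. Cdkn1c was chosen for its low value, and 0.643% of all kept genes lie below it, so this position sets it apart from most genes of any list.

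Factors that keep imprints or act with the antisense RNA were examined as a list. Of 27 listed chromatin and DNA methylation genes 23 were kept, with a median log2 fold change of -0.09, and none passed by edgeR or limma-voom, with 4 and 3 at an unadjusted p under 0.05, while DESeq2 called 1 lower. Dnmt3a, a de novo DNA methyltransferase, averaged 240 CPM with high-fat diet and 354 CPM with control diet (-0.56 ± 0.11 (SE); adjusted p = 0.0604, edgeR). Ehmt2, the H3K9 methyltransferase G9a that is known at this domain in mouse placenta, had -0.50 ± 0.19, the chromatin remodeller gene Hells 0.48 ± 0.19 and the imprint-maintaining co-repressor gene Trim28 -0.34 ± 0.14 (SE). Over all kept genes DESeq2 called 200 lower. Of the list, edgeR with all libraries called 1 lower in 4 alternatives. These were without a filter on low counts, with a replicate block, with the GC content and length trend removed, and with that trend removed and a replicate block. These fits called 267, 64, 83 and 133 genes lower over all genes. With 1 library left out the list's median log2 fold change ran from -0.12 to -0.0094.

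Imprinted genes elsewhere in the genome did not show a common direction. Of 46 listed genes 21 were kept, 10 above 0 and 11 below, with a median log2 fold change of -0.0048. None passed by edgeR, with 6 at an unadjusted p under 0.05 (17.0% of all kept genes), while DESeq2 called 2 higher and limma-voom 1 higher; edgeR called 2 higher with high-fat replicate 1 left out and 4 higher with replicate 2 of that diet left out, in fits with 831 and 500 calls over all genes. With the GC content and length trend removed it called none higher and 1 lower, and it called 1 higher without a filter on low counts and without robust fitting. The decorin gene Dcn, a matrix proteoglycan also counted among the fibroblast markers, had 3801 and 1909 counts with high-fat diet and 439 and 709 with control diet (log2 fold change 2.15 ± 0.43 (SE); adjusted p = 0.178, edgeR). Grb10, an adaptor that dampens insulin receptor signalling and was chosen after its values were seen, had 260 and 54 counts with high-fat diet and 22 and 21 with control diet. Herc3, a ubiquitin ligase gene, and Trappc9, of a vesicle tethering complex, stood at 0.47 ± 0.13 and -0.42 ± 0.15, and Impact, an inhibitor of the kinase GCN2, at -0.27 ± 0.09 (SE).

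A further list held genes of pathways reported to act on Cdkn1c in other cells, such as glucocorticoid, Notch, FOXO, KLF and TGF-beta signalling. Of its 16 genes 14 were kept, with 9 below 0 and a median log2 fold change of -0.20, and none passed by edgeR, DESeq2 or limma-voom, with 6 at an unadjusted p under 0.05 in each, beside 17.0% of all kept genes by edgeR. With high-fat replicate 1 left out, edgeR called 1 of each direction, in the fit with 831 calls over all genes, and without a filter on low counts it called 1 lower. Of the smallest p were Tgfb1, the cytokine TGF-beta 1, at -0.55 ± 0.15 and the Notch target Hey1 at -1.65 ± 0.53 (SE). The receptor gene Notch2 and the FOXO factor gene Foxo3 followed at -0.26 ± 0.10 and -0.43 ± 0.17 (SE). Hey1 had only 17 and 4 counts with high-fat diet and 28 and 32 with control diet. The list's other 5 kept genes lay above 0, among them Klf4 at 0.37 ± 0.18 (SE). Another Notch target, Hes1, was below the filter, with 11 and 23 counts with high-fat diet and 3 and 4 with control diet.

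The genes whose values over the 4 libraries lay nearest to those of Cdkn1c were picked by Euclidean distance between log2 CPM profiles centred on their means, among 8550 kept genes of at least 5 CPM. They were Lox, a collagen-crosslinking oxidase (distance 0.229), Rmrp, the RNA of the RNase MRP complex (0.280), the thyroid hormone deiodinase gene Dio2 (0.287), Tceal7 (0.300) and the secreted glycoprotein gene Fstl1 (0.305). Lox averaged 4.08 ± 0.959 CPM with high-fat diet and 8.24 ± 0.515 CPM with control diet, and Dio2 averaged 75.2 ± 25.5 CPM with high-fat diet and 151 ± 4.89 CPM with control diet (SD, n = 2 each). With 4 libraries in 2 groups many genes share such a profile: 4.77% of these genes had a Pearson correlation with Cdkn1c above 0.95. Kcnq1ot1 ranked 174 by distance, at 0.791.

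The labelled cell type was checked against its markers. All 9 macrophage markers with a model were kept, 8 of them below 0. The 1 called lower by edgeR was Mertk. It was not called by limma-voom, nor by edgeR with the CPM filter or without robust fitting. The markers summed to 19954 to 24405 CPM with high-fat diet and 25714 to 26766 CPM with control diet. Most of each sum was Lyz2, the lysozyme gene of myeloid cells, which averaged 18697 CPM with high-fat diet and 22512 CPM with control diet. Emr1 stood at -0.08 ± 0.11 and Cd68 at 0.14 ± 0.12 (SE). Markers of other cells differed between the diets in both directions beside Cdkn1c; their calls are given by edgeR, which called 0.322% of all kept genes higher and 0.290% lower, unless another tool is named. Of 13 mesothelial and fibroblast markers 10 were kept, all above 0 and 1 called higher, and the list summed to 86.4 to 173 CPM with high-fat diet and 20.8 to 28.2 CPM with control diet. DESeq2, which called 166 of all 12747 kept genes higher and 200 lower, called 5 of these 10 higher. Without robust fitting edgeR called 5 of them higher, beside 35 of all kept genes. The list's median log2 fold change was 2.09 with all libraries. It was 1.74 and 2.40 without high-fat replicates 1 and 2 (10 and 13 kept). Without control replicates 1 and 2 it was 2.28 and 2.42 (13 kept in each). Of 7 neutrophil markers with a model, all below 0, 2 were called lower, Mmp9 and Csf3r, and DESeq2 called 4 lower. The list summed to 55.3 to 58.2 CPM with high-fat diet and 90.1 to 93.0 CPM with control diet. Mmp9 averaged 7.13 CPM with high-fat diet and 19.8 CPM with control diet, and Csf3r 25.4 CPM and 41.0 CPM. S100a8, S100a9 and Cxcr2 overlapped between the diets. Of 5 dendritic cell markers, all below 0, 1 was called lower, with sums of 3.12 to 3.83 CPM with high-fat diet and 9.51 to 9.79 CPM with control diet; DESeq2 called 2 lower. Of 4 eosinophil markers 2 were kept, both below 0, with sums of 2.90 to 3.32 CPM with high-fat diet and 7.35 to 15.6 CPM with control diet; Epx and Prg2 had 0 counts in the high-fat libraries and 1 or 2 in the control libraries. With all libraries edgeR and limma-voom called neither of the 2 kept, while DESeq2 called both lower. Their median log2 fold change was -1.77 with all libraries and ran from -2.18 to -1.20 with 1 library left out. T cell markers summed to 1.27 and 13.8 CPM in high-fat replicates 1 and 2, and to 1.24 to 1.65 CPM with control diet. All 3 kept were above 0 and, with all libraries, none was called by edgeR, DESeq2 or limma-voom. The median log2 fold change of the T cell markers was 2.68 with all libraries (3 kept). It was 3.26 with high-fat replicate 1 left out (4 kept) and -0.34 with high-fat replicate 2 left out (3 kept). Endothelial markers summed to 10.6 to 13.8 CPM with high-fat diet and 9.44 to 9.45 CPM with control diet. The 3 kept were all above 0, and with all libraries none was called by edgeR, DESeq2 or limma-voom. The erythroid and platelet list, with the haemoglobin genes Hbb-b1 and Hba-a1 at 0, summed to 101 to 129 CPM with high-fat diet and 110 to 135 CPM with control diet. Nearly all of this was the single gene Pf4 (101 and 129 CPM with high-fat diet, 135 and 109 CPM with control diet). Itga2b had 5 to 10 counts per library and was below the filter. The part of these markers in the lower values of Cdkn1c and Kcnq1ot1 was not tested.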

How the data were processed

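The members and gene lists were chosen with earlier results of these data known. RNA of peritoneal macrophages was measured in 2 high-fat and 2 control libraries. The authors deposited raw counts per gene model, without normalization, with their gene models on mm9 (other values: exon start and end). The submitters' processing notes name HTSeq, TopHat2 2.0.10 and Cufflinks 2.1.1; settings and strand use: not given in the sources used here. Each deposited count table had 5 summary lines, which were left out; reads in more than 1 gene made up 0.664% to 0.823% of counted lines, reads in no gene 13.5% to 15.0% and reads at several places 37.5% to 48.5%. Replicates differed far beyond sampling noise (chi-square per degree of freedom 27.7 and 28.9). filterByExpr (minimum count 10, minimum total 15) kept 12747 genes. edgeR 4.0.16 (TMM, robust quasi-likelihood test, diet as the only term, 2 residual degrees of freedom) was run in R 4.3.3, with Benjamini-Hochberg adjustment over all kept genes, after a test on simulated data. DESeq2 1.42.0 and limma 3.58.1 (voom) were alternatives. Standard errors are the absolute log2 fold change over the root of the F value. Floors of 3 counts cover counting error only. GC content came from GENCODE M21 transcripts, matched for 23598 models by accession and 303 by symbol, with 724 unmatched. Named genes were the 9 members, models within 1000000 bases of Cdkn1c, up to 4 genes of smallest p per list, and the 5 nearest profiles. Klf4 and Hes1 were added for their higher values with high-fat diet, and some genes are given only in counts.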

Additional observations from a re-analysis of the deposited data

How the results depend on the processing

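Over all genes 78 passed by edgeR, against 366 by DESeq2, 28 by limma-voom, 522 without a filter on low counts, 46 with a filter of 1 CPM, 143 with the GC content and length trend removed and 251 with that trend removed and a replicate block; leaving out 1 library gave 15 to 831 (15 and 18 when control replicates 1 and 2 were left out in turn, 831 and 500 for high-fat replicates 1 and 2). The cause was not tested. The log2 fold change of Cdkn1c ranged from -1.46 to -1.05 when a library was left out, and was -1.07 with the GC content and length trend removed. Kcnq1ot1, the only gene called of the 8 included for their position, kept its direction and missed the threshold with DESeq2 size factors in edgeR (-0.55, adjusted p = 0.0505), by limma-voom (-0.55, 0.0776), with the CPM filter (-0.56, 0.0542), without robust fitting (-0.55, 0.0613) and with a replicate block (-0.55, 0.0515). Without a library its log2 fold change ran from -0.64 to -0.48, so the count called of these 8 was 0 in all these fits and ranged from 0 to 1 without a library; it was also 0 without overlapping genes, which removes Kcnq1ot1. The fit with assembled genes left out, chosen after seeing the data, kept the call (-0.56, 0.0496). Signs turned for genes that never passed: without control replicate 2, Kcnq1 was -0.03, Slc22a18 -0.10 and Cd81 -0.05, and without high-fat replicate 2, Kcnq1 was -0.19 and Cd81 -0.14; with each library left out in turn, Kcnq1 ranged from -0.19 to 0.55, Slc22a18 from -0.10 to 1.52 and Cd81 from -0.14 to 0.45. The Nap1l4 level was 41.6 CPM per kb with high-fat diet and 36.7 CPM per kb with control diet on the length of its longest transcript. The replicate numbers were not shown to pair the libraries: deviations of equally numbered libraries from their diet's mean correlated at 0.0888 across 12747 genes, with 113 genes called under the block.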
